A study of Mus musculus with 753 samples.

Results

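The 41 genes described here encode proteins that copy DNA in S phase of the cell cycle. They were taken by name, as 41 of the 25001 genes of the combined table of deposited values, by a rule that uses names and no measured value. All 41 were found in the table and all 41 had values in both sequencing batches. By role they comprise 2 licensing factors (Cdc6 and Cdt1), the 6 subunits of the Mcm2-7 helicase, 5 helicase activators (Cdc45 and Gins1 to Gins4), 6 genes of the sliding clamp and its loader (Pcna and Rfc1 to Rfc5), and 3 subunits of the single-strand binding protein (Rpa1 to Rpa3). The others are 9 polymerase and primase subunits, 2 genes of Okazaki fragment processing (Fen1 and Lig1), 5 genes of nucleotide supply (Rrm1, Rrm2, Tyms, Tk1 and Dut), the maintenance methylation factor Uhrf1, and the cyclins Ccne1 and Ccne2.

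The data are Smart-seq2 libraries of sorted mouse epidermal cells, in which full-length transcripts of each cell were sequenced without molecular identifiers or strand information. The mice were of the strain Gata6EFGPCreERT2 Rosa26-fl/STOP/fl-tdTomato43, with genotype Cre (+/-) tdTomato (+/-). All of them, those of day 0 included, had 1 mg of 4-hydroxytamoxifen in 100 µl acetone applied to the clipped back skin, which marks cells expressing Gata6 at that time, and their progeny, with tdTomato. The sort took cells with tdTomato (lin+) and without it (lin-), either from unwounded back skin, labelled day 0, or from full-thickness back wounds at day 6, 9 or 11. By the paper, the sort also left out CD45-positive cells and gated on Itga6, high in basal and low to mid in suprabasal cells. The paper reports that lin+ cells of unwounded skin almost all had low to mid Itga6. How these gates bear on the values below was not tested. Cre is driven by Gata6, so a Gata6-expressing cell that escaped recombination counts as lin-. By the methods of the study, a replicate of day 9 or 11 was 1 mouse, day 6 combined several mice, the day 0 skin was taken away from the wound in mice of days 9 and 11, and cells were mixed before the sort with GFP-expressing epidermal cells that the sort then removed. The deposited annotation holds 684 cells, which form 14 mouse sets of 1 lineage, 1 day and 1 replicate. Day 6 cells form 1 pooled set per lineage, since their labels carry no replicate number. Replicate 1 (222 cells, the first batch) was deposited as read counts. Replicate 2 and day 6 (462 cells, the second batch) were deposited as RPKM, so levels are compared within a batch and not between batches. Sets held 26 to 93 cells, with a median of 1793289.5 to 5967310.5 reads and 1776 to 3228 genes detected per cell, and the number of genes detected was higher in wounds at days 9 and 11 than at day 0 in each batch and lineage.

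DNA replication starts from origins that Cdc6 and Cdt1 license in G1 by loading Mcm2-7, the ring-shaped helicase. Cdc45 and the GINS complex then activate the helicase, polymerase alpha with primase lays down primers, polymerases delta and epsilon extend them on the Pcna clamp, and Fen1 and Lig1 join the lagging strand. Transcription of many of these genes rises at the G1/S boundary under E2F factors, and in the epidermis the cells that divide are mainly those of the basal layer and of the hair follicle.

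Promoters of 33 of the 41 members were available from RefSeq (GRCm38.p6), as windows of 300 bases from 250 before to 50 after each start. They were searched on either strand for the E2F letters TTTCGCGC, TTTGGCGC and TTTCCCGC, some of which can overlap each other. At least 1 of these was found for 14 of the 33 members (42.4%), beside 573 of 27025 genes with a promoter (2.12%) and 483 of 17492 protein-coding genes (2.76%). The 14 members were Cdc6, Cdt1, Mcm3, Mcm5, Mcm6, Mcm7, Gins3, Rfc3, Pola1, Pold1, Pold3, Pole2, Lig1 and Uhrf1. CCAAT was found for 19 members (57.6%), beside 41.1% of genes, and the CHR letters TTTGAA, which mark many mitosis genes, for 5 (15.2%), beside 20.2%. The windows of the 4 helicase subunits with a match are shown, because later results turn on this complex, with the E2F letters in capitals.
Mcm3, chr1:20820263-20820562, reverse strand: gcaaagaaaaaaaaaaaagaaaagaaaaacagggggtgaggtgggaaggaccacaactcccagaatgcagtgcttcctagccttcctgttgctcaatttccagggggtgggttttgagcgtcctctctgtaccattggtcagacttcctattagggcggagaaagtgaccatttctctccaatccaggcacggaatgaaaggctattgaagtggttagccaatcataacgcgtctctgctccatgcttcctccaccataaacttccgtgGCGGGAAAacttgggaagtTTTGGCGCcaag
Mcm5, chr8:75109259-75109558, forward strand: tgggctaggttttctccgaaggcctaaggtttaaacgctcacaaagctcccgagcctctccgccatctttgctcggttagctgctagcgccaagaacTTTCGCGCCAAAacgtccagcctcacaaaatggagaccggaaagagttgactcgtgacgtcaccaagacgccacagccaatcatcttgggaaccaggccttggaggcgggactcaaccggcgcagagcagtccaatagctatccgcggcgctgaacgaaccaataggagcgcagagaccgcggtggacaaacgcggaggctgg
Mcm6, chr1:128359656-128359955, reverse strand: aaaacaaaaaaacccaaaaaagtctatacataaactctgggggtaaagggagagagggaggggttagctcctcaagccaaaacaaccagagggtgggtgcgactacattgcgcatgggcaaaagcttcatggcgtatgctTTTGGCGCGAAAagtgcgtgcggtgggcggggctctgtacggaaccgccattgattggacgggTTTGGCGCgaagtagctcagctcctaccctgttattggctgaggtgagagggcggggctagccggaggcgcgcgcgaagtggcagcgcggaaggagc
Mcm7, chr5:138171834-138172133, reverse strand: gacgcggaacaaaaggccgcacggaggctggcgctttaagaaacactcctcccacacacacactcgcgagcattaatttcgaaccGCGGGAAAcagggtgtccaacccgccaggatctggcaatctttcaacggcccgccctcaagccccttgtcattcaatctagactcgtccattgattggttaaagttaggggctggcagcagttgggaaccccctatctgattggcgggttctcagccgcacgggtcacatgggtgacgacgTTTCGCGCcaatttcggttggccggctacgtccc
In the Mcm5 window, TTTCGCGC on the printed strand overlaps TTTGGCGC on the other. The first capitals of the Mcm6 window hold the same pair on swapped strands, and those of Mcm3 and Mcm7 that begin with GCGGG are TTTCCCGC read on the other strand. A match of letters is a description of the window and not a binding site. Mcm4, Gins1, Gins2, Gins4, Rfc2, Prim2, Pole and Ccne2 had no entry.

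The level of the genes as a group was measured by a score, the mean over the 41 members of the natural log of 1 plus 10000 times a gene's share of the cell's total. In lin+ cells the mean score of the first batch was 0.0846 at day 0, 0.183 at day 9 and 0.142 at day 11. In the second batch it was 0.106 at day 0, 0.129 at day 6, 0.189 at day 9 and 0.208 at day 11. All 4 lin+ sets of days 9 and 11 were thus above day 0 of their own batch. In lin- cells the score was 0.107, 0.269 and 0.0778 at days 0, 9 and 11 of the first batch. In the second batch it was 0.0639 at day 0, 0.119 at day 6, 0.257 at day 9 and 0.233 at day 11. Of the lin- sets, day 11 of the first batch lay below its day 0, and the other late sets lay above.

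**Figure D1:**
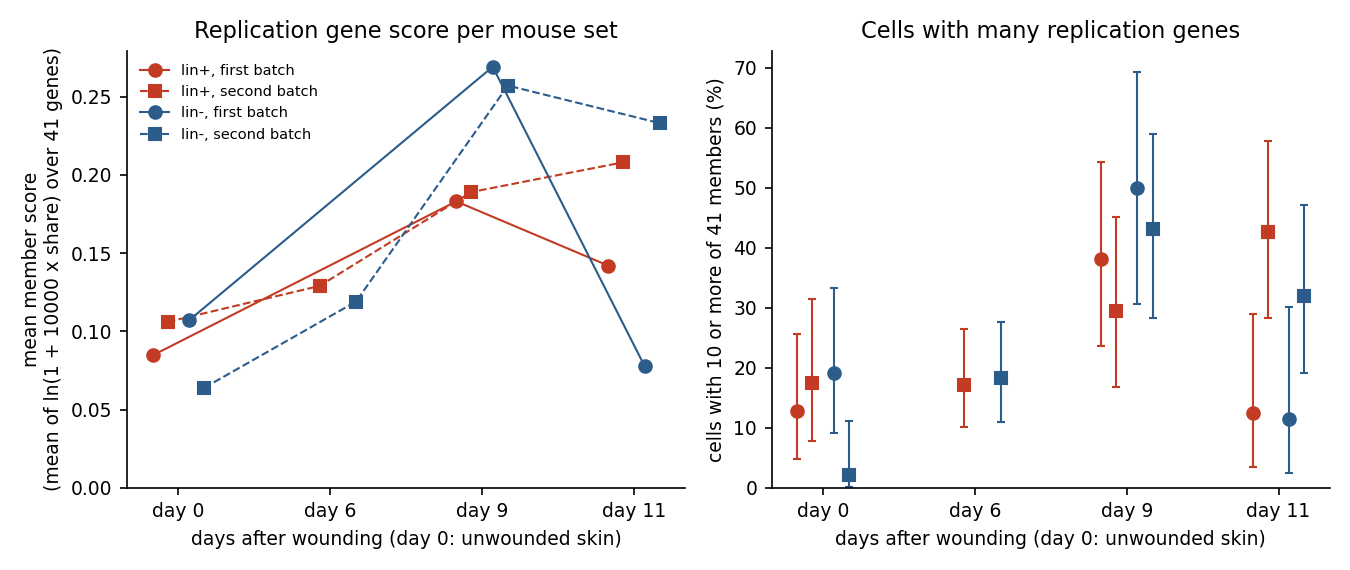
Replication gene score (left, mean over cells) and share of cells with reads of 10 or more of the 41 members (right, percent with exact 95% binomial intervals) by day after wounding, for each of the 14 mouse sets; circles are the first batch, squares the second, and lines join the sets of a batch and lineage. Day 9 is above day 0 in each lineage and batch, and lin- day 11 of the first batch is at 0.0778, below its day 0.

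Genes in general also scored higher in late wounds, where more genes were detected per cell. The mean of days 9 and 11 over day 0 was 1.92 for the members and 1.60 for all other tested genes in lin+ cells of the first batch, and 1.88 against 1.35 in the second. In lin- cells it was 1.63 against 1.47 in the first batch and 3.83 against 1.52 in the second. The excess of the members over other genes was therefore smallest in lin- cells of the first batch, where day 9 stood at 2.52 times day 0 and day 11 at 0.729 times. Without lin- day 9 replicate 1 the late difference there turned from 0.0668 to -0.0289. At day 6 the ratio to day 0 was 1.22 for members and 0.959 for other genes in lin+ cells, and 1.86 against 1.01 in lin- cells. How much of the score follows from the number of genes detected was not tested.

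Replication genes were found together in a minority of cells. Of 684 cells, 161 (23.5%) had reads of 10 or more members, 50 had none, the median was 4 and the highest number was 38, and 31 cells lay near the limit with 9 to 11. In lin+ cells of the first batch the share with 10 or more was 12.8% (exact 95% interval 4.8 to 25.7) at day 0, 38.1% (23.6 to 54.4) at day 9 and 12.5% (3.5 to 29.0) at day 11. In the second batch it was 17.4% (7.8 to 31.4) at day 0, 17.2% (10.2 to 26.4) at day 6, 29.5% (16.8 to 45.2) at day 9 and 42.6% (28.3 to 57.8) at day 11. For lin+ cells the higher shares were therefore at day 9 in the first batch and at both late days in the second, with intervals that overlap those of day 0 in each case. The lin- cells of the first batch went from 19.1% (9.1 to 33.3) at day 0 to 50.0% (30.6 to 69.4) at day 9 and 11.5% (2.4 to 30.2) at day 11. Those of the second went from 2.1% (0.1 to 11.1) at day 0 to 18.3% (11.0 to 27.6) at day 6, 43.2% (28.3 to 59.0) at day 9 and 31.9% (19.1 to 47.1) at day 11. Only for these lin- cells of the second batch did the late intervals lie apart from that of day 0. The intervals cover counting error of cells and not the spread between mice. With every cell thinned to 500000 reads, which 662 cells reach, the shares were 10.6%, 36.6% and 12.5% for lin+ cells of the first batch and 2.1%, 18.8%, 41.9% and 33.3% for lin- cells of the second. Per 1000 genes detected in a set, 1.70 to 2.38 were members at day 0 and 1.71 to 3.69 at days 9 and 11.

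**Figure D2:**
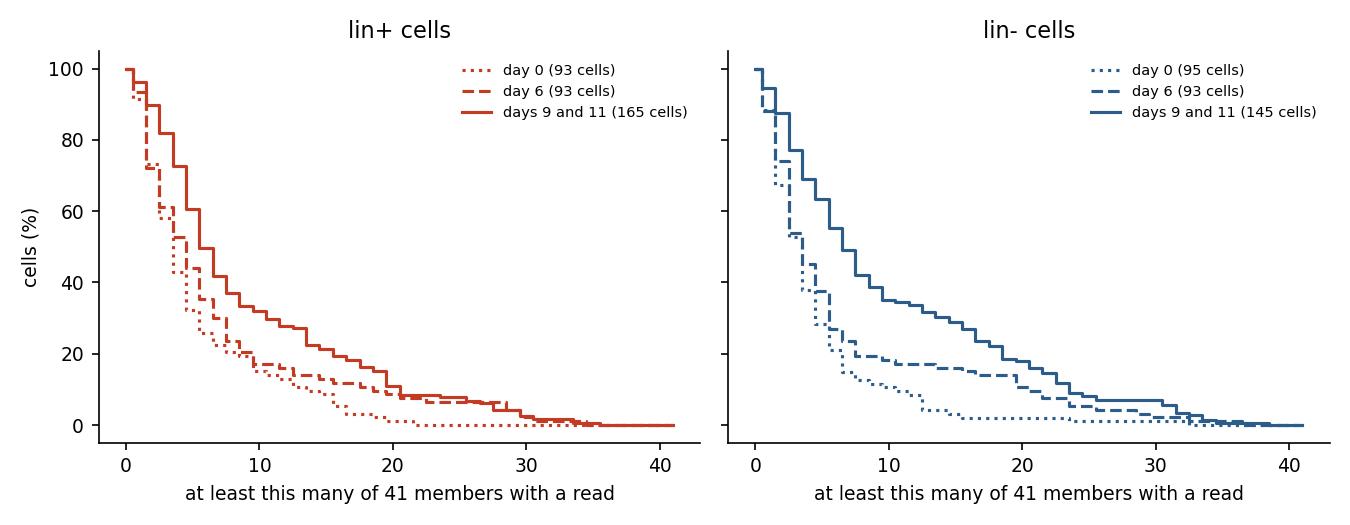
Percent of cells with reads of at least the number of members on the horizontal axis, for lin+ cells (left) and lin- cells (right), batches pooled; dotted lines are day 0, dashed lines day 6 and solid lines days 9 and 11. The late line lies above day 0 from 1 to over 20 members, and no day 0 line of lin+ cells goes past 21 members.

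Member by member, the share of cells with a read was higher in late wounds than at day 0 for most genes, as it was for genes at large. Among the 39 members with reads in at least 5% of cells, 37 were detected in a higher share of lin+ cells with batches and late days pooled, and 39 of 39 in a higher share of lin- cells. The same held for 86.1% and 84.8% of 10288 genes, so the counts differ little from the background. The size of the change differed more in lin- cells. The median difference of a member was 16.01 percentage points there, beside 8.20 for all genes, and 9.50 beside 7.98 in lin+ cells. When all 4 late sets had to lie above day 0 of their own batch, 23 of 39 members did so in lin+ cells (background 52.1%) and 18 of 39 in lin- cells (background 44.3%), and none lay below in all 4.

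**Figure D3:**
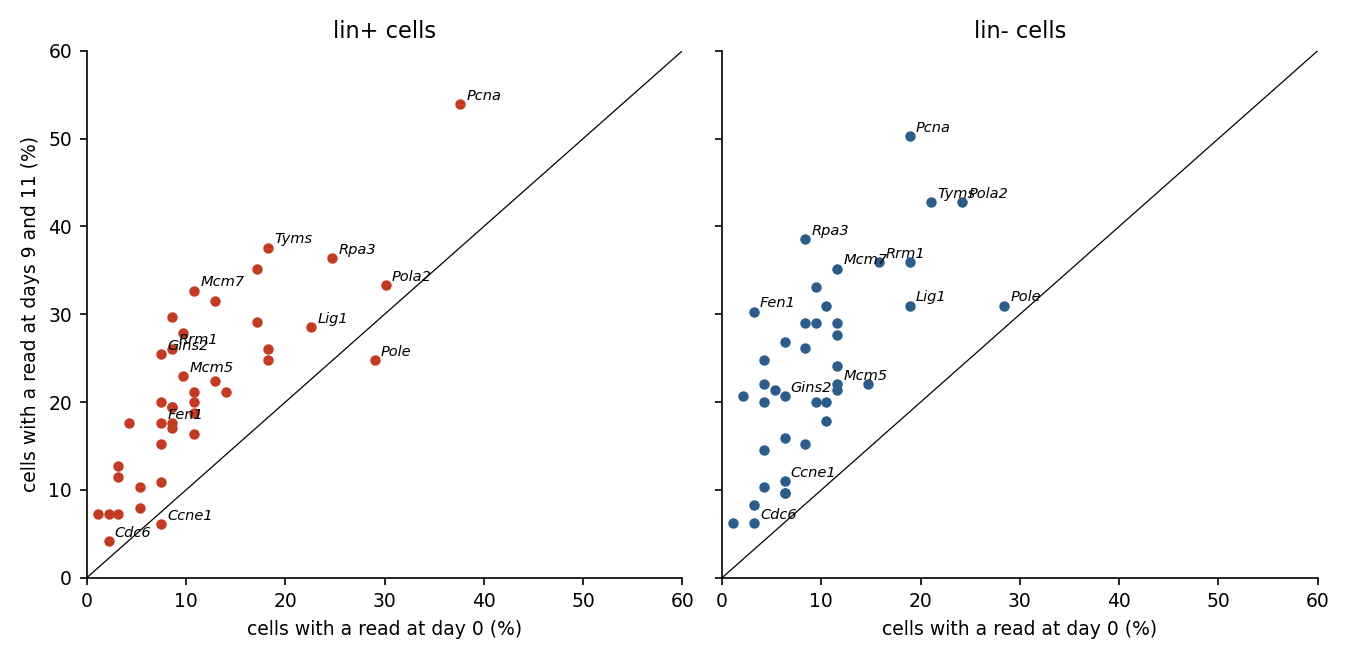
Each point is 1 of the 41 members, with the percent of cells that have a read of it at day 0 (horizontal) and at days 9 and 11 (vertical), for lin+ cells (left) and lin- cells (right), batches pooled; the line marks equal shares. Pcna has the highest late share in each panel, and Pole and Ccne1 lie below the line in lin+ cells.

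Mean levels of single members depended on few cells. The highest cell of a set held a median of 40.2% of the set's summed value of a member, and 19 of 574 pairs of member and set had no read at all. A level is a gene's share of a cell's total per 1000000, averaged over cells for each set and scaled within a batch. They are called CPM here, and are shares of reads in the first batch and shares of the RPKM total, hence per length, in the second. They were tested with limma on log2(CPM + 1), with the mouse set as replicate and Benjamini-Hochberg adjustment over all tested genes. Every member passed the filter of 10 CPM in at least 2 sets. In lin+ cells, no member of 41 passed an adjusted p of 0.05 for days 9 and 11 against day 0, beside 10 of 10663 genes (0.0938%). At an unadjusted p under 0.05 there were 3 (Mcm7, Pold2 and Rfc5), all higher in the wounds, where 10.1% of genes reached it. In lin- cells again none of the 41 passed, beside 20 genes (0.188%), and 4 had an unadjusted p under 0.05 (Rfc5, Mcm2, Mcm6 and Gins2), all higher, beside 12.9%. edgeR on summed reads called no member either, with 2 and 1 at an unadjusted p under 0.05. Standard errors of the members ranged from 0.48 to 1.6 on the log2 scale with a median of 0.88, so the change of a single member was measured with low precision in these few sets. Fewer cycling cells and less RNA per cell cannot be told apart in a set mean.

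Taken over the 41 genes, 31 had a fitted log2 change above 0 in lin+ cells, with a median of 0.56 beside 0.15 for all genes, of which 55.7% were above 0. In lin- cells 26 were above 0, with a median of 0.69 beside 0.12 and 53.6%. These medians rest on few sets. Without lin- day 0 replicate 2 the lin- median was -0.12 and 17 members were above 0, and without lin- day 0 replicate 1 it was 1.67 with 34. Without lin- day 11 replicate 2 it was 0.25, and without lin- day 11 replicate 1 it was 1.11. The lin+ median ran from 0.30 without lin+ day 11 replicate 2, and 0.34 without lin+ day 0 replicate 2, to 0.82 without lin+ day 11 replicate 1.

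On the scale of the score, where the log is taken in each cell before averaging, more members reached the unadjusted limit in lin- cells than on the log2 scale. The same limma test on the mean over cells of the natural log values gave 18 of 41 members (43.9%) an unadjusted p under 0.05 in lin- late wounds, all 18 higher, beside 22.0% of genes. After adjustment none of the 41 passed, beside 2.81% of genes, and the lowest adjusted p was 0.0506, for Fen1, the flap endonuclease that trims Okazaki fragments. The antisense gene Gm10143 overlaps 78.82% of the Fen1 exon bases, and without strand their reads cannot be told apart. Fen1 differed by 0.289 with a standard error of 0.078. Others were Gins4 (0.228, standard error 0.065), Mcm6 (0.257, 0.075), Rfc5 (0.186, 0.056) and Rrm2, a subunit of ribonucleotide reductase (0.240, 0.075). In lin+ late wounds 7 of 41 members (17.1%) had an unadjusted p under 0.05, close to the background of 15.9%, none passed after adjustment, beside 0.694% of genes, and Pold2 was first (0.302, standard error 0.082, adjusted p = 0.0873). The median difference on this scale was 0.114 for members and 0.039 for all genes in lin- cells, against 0.078 and 0.034 for lin+.

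**Figure D4:**
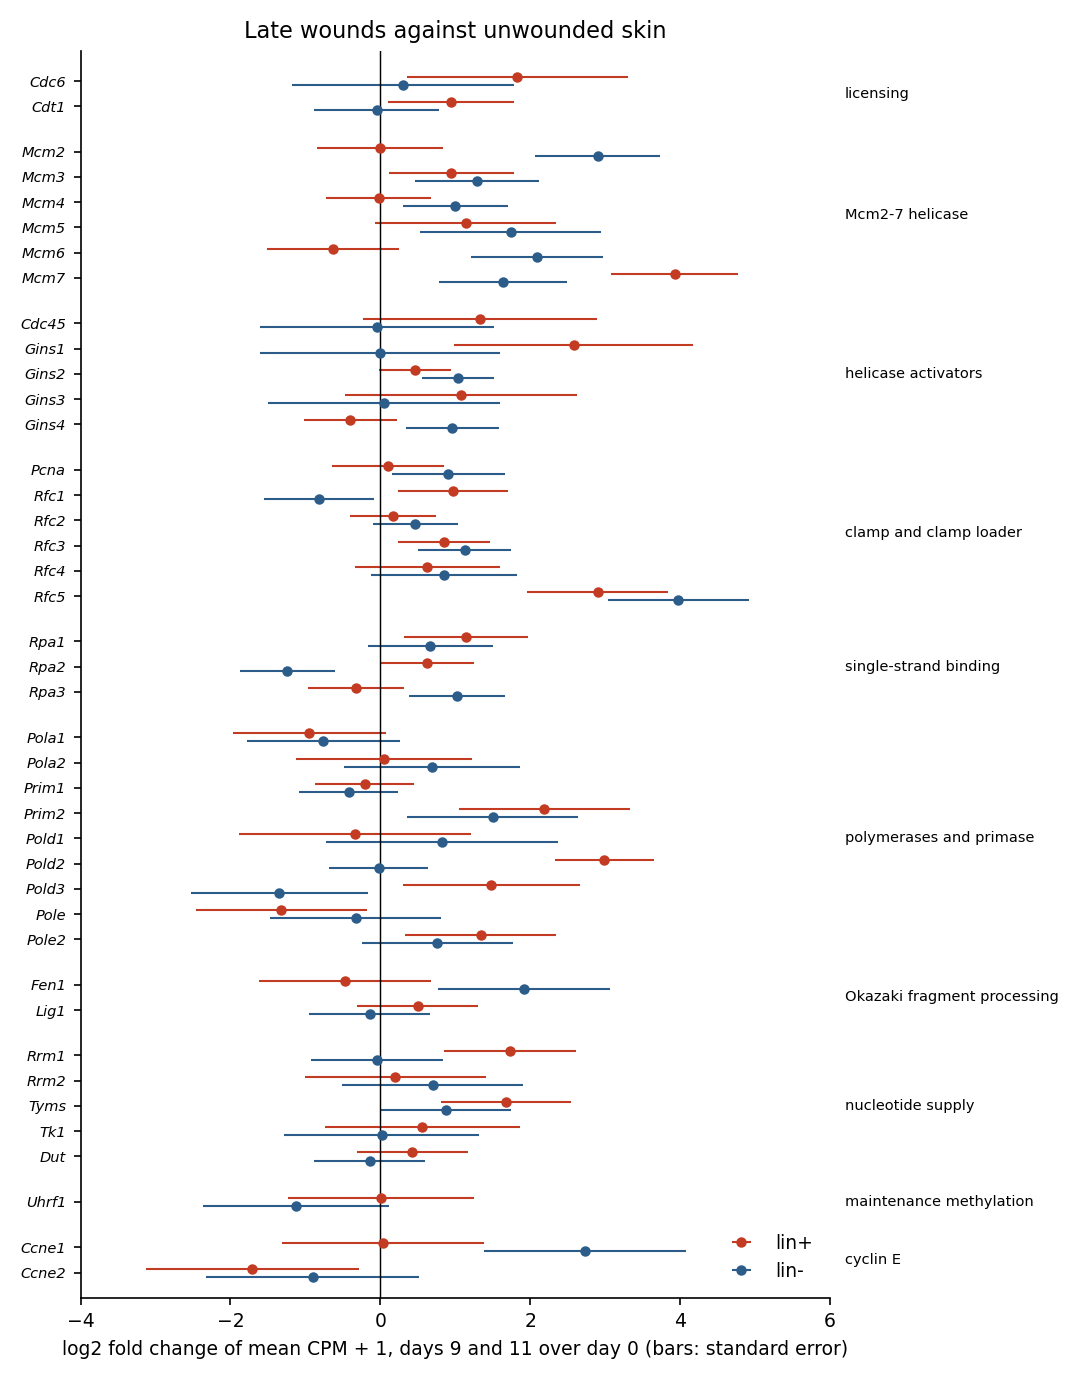
Fitted log2 fold change of the mean CPM + 1 of each member at days 9 and 11 against day 0, with its standard error as a bar, for lin+ (red) and lin- (blue), ordered by role. The Mcm2-7 subunits lie above 0 in lin- cells, and no member of either lineage passed an adjusted p of 0.05.

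Of the licensing genes, Cdc6, which loads the helicase together with Cdt1, had the lowest level per length of all members, 2.58 TPM (a share of transcripts, scaled to gene length) as the mean over sets, and reads in 28 of 684 cells. Cdt1 in lin+ cells had 33.0, 20.5 and 79.9 CPM at days 0, 9 and 11 of the first batch and 8.3, 18.3, 30.6 and 23.8 at days 0, 6, 9 and 11 of the second. The lin- sets had 25.2, 56.0 and 27.6 in the first batch and 14.3, 9.95, 6.76 and 9.98 in the second. The late sets of lin- cells lay above day 0 in the first batch and below it in the second. Its log2 change in late wounds was 0.94 (standard error 0.84) in lin+ cells and -0.05 (0.84) in lin- cells.

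The Mcm2-7 helicase unwinds DNA ahead of the polymerases, and its 6 subunits act as 1 ring. In lin- late wounds 6 of 6 had a fitted change above 0, with a median of 1.69 and a range of 1.00 to 2.90, beside 53.6% of all genes above 0, and in lin+ cells 4 of 6, with a median of 0.48, beside 55.7%. The lin- changes came mainly from the second batch, where the 6 ranged from 2.29 to 5.08. In the first batch Mcm3 (-0.50), Mcm4 (-0.28) and Mcm5 (-1.61) were below 0. Mcm5 was picked by its mean CPM. In lin+ cells it had 146, 201 and 73.9 CPM at days 0, 9 and 11 of the first batch and 3.4, 14.9, 27.6 and 21.7 at days 0, 6, 9 and 11 of the second. Its lin- values were 343, 198 and 62.9 in the first batch and 0.00573, 17.7, 32.9 and 33.4 in the second. It was thus above day 0 in all wound sets of the second batch, and below it in 3 of 4 late sets of the first. The log2 changes, 1.14 (standard error 1.21) and 1.74 (1.21), had adjusted p-values of 0.769 and 0.578.

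Mcm7, Mcm2 and Mcm6 were not among the genes picked by level and are described because their values stood out. Mcm7 in lin+ cells had 0.775 CPM at day 0, 65.3 at day 9 and 61.5 at day 11 of the first batch, and 3.33 at day 0, 35.4 at day 6, 27.4 at day 9 and 25.7 at day 11 of the second. Every lin+ wound set was above day 0 of its own batch. Among all genes, 17.9% lay above day 0 of the same batch in all 4 late lin+ sets. The log2 change in late wounds was 3.93 with a standard error of 0.85 (adjusted p = 0.136). Without lin+ day 0 replicate 2 it was 5.21 (standard error 0.93), a fit in which lin+ day 0 rests on 1 set, where Mcm7 had 0.775 CPM. In lin- cells Mcm7 had 35.2, 62.6 and 49.9 CPM in the first batch and 4.84, 19.6, 34.2 and 35.9 in the second, with a late change of 1.64 (0.85). The share of cells with a read of Mcm7 went from 10.8% to 32.7% of lin+ cells and from 11.6% to 35.2% of lin- cells. Its exons overlap those of Ap4m1 on the other strand over 7.25% of their bases, where reads without strand cannot be told apart.

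Mcm2 and Mcm6 had fitted changes well above 0 in lin- cells alone, a difference that did not pass the test. Mcm2 in lin+ cells had 58.7, 37.7 and 69.7 CPM at days 0, 9 and 11 of the first batch and 15.3, 10.8, 16.4 and 19.1 at days 0, 6, 9 and 11 of the second, with late sets on either side of day 0 in the first batch and slightly above it in the second. The lin- sets had 3.3, 20.7 and 18.0 in the first batch and 0.598, 14.3, 15.2 and 20.9 in the second, with every wound set above day 0. The late change was 0.00 (standard error 0.84) in lin+ cells and 2.90 (0.84, adjusted p = 0.183) in lin- cells. Mcm6 had 217, 33.8 and 67.9 CPM in lin+ cells of the first batch and 38.3, 44.7, 70.0 and 74.9 in the second. Its lin- values were 62.6, 99.7 and 56.0, and 3.64, 35.7, 94.0 and 51.4, so that lin- sets of the second batch were all above day 0. Mcm6 fitted at -0.63 (0.88) and 2.09 (0.88, adjusted p = 0.358). The difference between lineages, lin+ minus lin-, was -2.90 (standard error 1.18, adjusted p = 0.655) for Mcm2 and -2.72 (1.25, adjusted p = 0.686) for Mcm6.

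Cells with reads of all 6 subunits were rare. There were 0 of 93 lin+ and 0 of 95 lin- cells at day 0, which allows a share of up to 3.2% in each, taken as 3 counts of the total (exact upper limits 3.9% and 3.8%). In late wounds they were 5 of 165 lin+ cells (3.0%, interval 1.0 to 6.9) and 4 of 145 lin- cells (2.8%, 0.8 to 6.9). The share of cells with no subunit went from 61.3% (50.6 to 71.2) at day 0 to 46.1% (38.3 to 54.0) in lin+ late wounds, and from 62.1% (51.6 to 71.9) to 42.1% (33.9 to 50.5) in lin- cells.

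Of the helicase activators, Gins2, a subunit of the GINS complex, had the highest level. It had 112, 146 and 150 CPM in lin+ cells at days 0, 9 and 11 of the first batch and 59.7, 176, 69.7 and 108 at days 0, 6, 9 and 11 of the second. The lin- values were 61.5, 239 and 66.2 in the first batch and 31.0, 81.1, 85.3 and 50.3 in the second. All wound sets were above day 0 of their batch in each lineage. The late change was 0.46 (standard error 0.48) in lin+ and 1.04 (0.48, adjusted p = 0.387) in lin- cells. As 67.32% of the Gins2 exon bases overlap Gse1 on the other strand, its level is uncertain. Cdc45, Gins1 and Gins3 had reads in 5.0% to 6.4% of cells, with standard errors of 1.55 to 1.6.

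Pcna, the sliding clamp that holds polymerases on DNA, was the most abundant member per length, at 145 TPM, and was read in 279 of 684 cells (40.8%), the most of any member with batches pooled. In the second batch alone Tyms was read in more cells (41.3%) than Pcna (40.5%). In lin+ cells it had 102, 159 and 110 CPM at days 0, 9 and 11 of the first batch and 184, 234, 175 and 150 at days 0, 6, 9 and 11 of the second. The lin- sets had 74.3, 187 and 15.6 in the first batch and 27.7, 156, 116 and 157 in the second. Late lin+ sets lay on either side of day 0, and late lin- sets lay above it apart from day 11 of the first batch, the lowest set of that batch. The fitted change of Pcna was 0.10 (standard error 0.75) in lin+ and 0.91 (0.75) in lin- late wounds. It has 2 annotated pseudogenes, with which reads could be shared.

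Rfc5, a subunit of the clamp loader, is described because its values stood out. In lin+ cells it had 3.58, 35.7 and 17.1 CPM at days 0, 9 and 11 of the first batch and 3.19, 9.82, 35.5 and 46.5 at days 0, 6, 9 and 11 of the second. In lin- cells there was no read at day 0 of the first batch, then 56.0 and 3.24, and 1.81, 80.6, 59.3 and 32.8 in the second. Wound sets were above day 0 without exception in each lineage. The late change was 2.90 (standard error 0.94, adjusted p = 0.334) in lin+ cells and 3.98 (0.94, adjusted p = 0.144) in lin- cells. The share of cells with a read went from 4.3% to 17.6% of lin+ and from 2.1% to 20.7% of lin- cells. Exons of Rfc5 overlap those of Wsb2 on the other strand over 10.69% of their bases, where reads without strand cannot be told apart. Of the clamp and loader genes, 6 of 6 fitted above 0 in lin+ cells (median 0.74) and 5 of 6 in lin- cells (median 0.88), the exception being Rfc1 at -0.82 (0.73), where 55.7% and 53.6% of all genes were above 0. Within batches the signs were mixed. Rfc2 (-0.59) and Rfc4 (-0.60) in lin+ replicate 1 and Pcna (-0.18) in lin+ replicate 2 were below 0, as were Pcna (-0.43), Rfc2 (-0.39) and Rfc4 (-0.64) in lin- replicate 1.

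Rpa3, the smallest subunit of the protein that covers single-stranded DNA, had 6.14, 4.62 and 9.14 CPM in lin+ cells at days 0, 9 and 11 of the first batch and 248, 253, 172 and 130 at days 0, 6, 9 and 11 of the second. Among lin- sets it had 1.68, 10.3 and 3.6 in the first batch and 88.8, 142, 146 and 131 in the second. Late lin- sets were above day 0 throughout, and late lin+ sets were below it in 3 of 4. With 638 bases Rpa3 is the shortest member, and only the second batch's values are per length. Scaled to length in both batches, it still ran from 4.19 to 242 TPM over sets, and the cause of the gap between batches was not tested. The late change was -0.32 (standard error 0.64) and 1.03 (0.64) in lin+ and lin- cells. Rpa2, another subunit, was below day 0 in all 4 late lin- sets, with a change of -1.24 (0.63, adjusted p = 0.429).

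Polymerase and primase genes had the smallest medians among the larger groups, 0.05 over 9 genes in lin+ and -0.02 in lin- late wounds. Prim1, the catalytic primase subunit, had 42.3, 17.3 and 16.3 CPM in lin+ cells at days 0, 9 and 11 of the first batch and 43.0, 87.6, 96.1 and 64.2 at days 0, 6, 9 and 11 of the second. Its lin- values were 53.3, 49.4 and 15.5, and 102, 95.0, 107 and 109. In lin+ cells the late sets were below day 0 in the first batch and above it in the second, and the fitted changes were -0.21 (standard error 0.66) and -0.42 (0.66). Pold2, an accessory subunit of polymerase delta, is described for its values. In lin+ cells it had 12.3, 64.2 and 116 CPM in the first batch and 7.79, 27.0, 47.3 and 147 in the second. The lin- sets had 77.3, 108 and 32.1, and 35.8, 55.9, 34.1 and 61.9. Every lin+ wound set was above day 0, with a late change of 2.99 (0.66, adjusted p = 0.136), while late lin- sets lay on either side of it (-0.02, 0.66). The difference between lineages was 3.01 (0.93, adjusted p = 0.558).

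Lig1, the ligase that seals Okazaki fragments, had 137, 82.5 and 91.8 CPM in lin+ cells at days 0, 9 and 11 of the first batch and 9.09, 27.5, 36.2 and 25.8 at days 0, 6, 9 and 11 of the second. The lin- values were 66.0, 146 and 23.6, and 47.0, 20.1, 43.7 and 42.4. Late sets were below day 0 in the first batch and above it in the second for lin+ cells, and the changes were 0.50 (standard error 0.81) and -0.14 (0.81). Tk1, the thymidine kinase of dividing cells, had 50.1, 118 and 28.3 CPM in lin+ cells of the first batch and 35.1, 53.0, 54.0 and 83.2 in the second. In lin- cells it had 47.3 and 194 at days 0 and 9 and no read at day 11 of the first batch, and 20.9, 24.8, 68.7 and 84.8 in the second. Tk1 was above day 0 in all wound sets of the second batch and at day 9 of the first, and below it at day 11 of the first. Its changes were 0.56 (1.3) and 0.02 (1.3). Tyms, thymidylate synthase, was above day 0 in all 8 late sets, by 1.68 (0.87) in lin+ and 0.88 (0.87) in lin- cells, and may share reads with its annotated pseudogene. All 4 late sets of a lineage lay above day 0 for 17.9% of genes in lin+ and 15.8% in lin- cells.

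Uhrf1, which brings maintenance methylation to new DNA, had 22.5, 34.0 and 12.7 CPM in lin+ cells at days 0, 9 and 11 of the first batch and 11.9, 3.17, 12.5 and 13.6 at days 0, 6, 9 and 11 of the second. Its lin- values were 64.2, 42.1 and 0.236, and 6.83, 8.02, 11.6 and 16.6. Late sets lay above day 0 in the second batch, and below it in the first apart from lin+ day 9, and the changes were 0.01 (standard error 1.24) and -1.12 (1.24). Ccne1, cyclin E1, which drives entry into S phase, had 2.69, 25.4 and 0.0 CPM in lin+ cells of the first batch and 18.4, 1.34, 30.1 and 5.95 in the second. In lin- cells it had 0.222, 27.4 and 0.0, and 0.0388, 1.12, 5.04 and 17.2. It was above day 0 at day 9 in each lineage and batch, with no read at day 11 of the first, and fitted at 0.04 (1.35) in lin+ and 2.73 (1.35, adjusted p = 0.423) in lin- cells.

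Levels above day 0 of the same batch in all 4 late sets were found for 10 of 41 members in lin+ cells (24.4%), where 17.9% of genes did so, and for 8 (19.5%) in lin- cells, where 15.8% did. Mcm7, Gins2, Rfc3, Rfc5, Rpa1 and Tyms did so in both lineages. The share of all genes that did so in both was not counted, so this overlap cannot be set against genes at large. The same holds for the passages on these genes above. Levels below day 0 in all 4 were found for Pola1, Pole and Ccne2 in lin+ cells (3 members, background 14.3%) and for Rpa2 in lin- cells (1 member, background 14.9%).

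Day 6 has 1 set per lineage, so the test takes its spread from the other groups and assumes that the lone set varies like them. Against day 0 no member of 41 passed in either lineage, beside 0.0% of genes in lin+ and 0.0375% in lin- cells. At an unadjusted p under 0.05 there were 4 in lin+ cells (Mcm7, Rfc3, Gins2 and Gins1, background 4.32%) and 2 in lin- cells (Rfc5 and Mcm2, background 6.04%). The fitted change was 4.14 (standard error 1.23, adjusted p = 1.0) for Mcm7 in lin+ and 5.12 (1.36, adjusted p = 0.421) for Rfc5 in lin- cells. From day 6 to late wounds no member passed, beside 0.00938% of genes in lin+ and 0.0375% in lin- cells, with 1 member (Rpa1) and 0 at an unadjusted p under 0.05, where the backgrounds were 2.3% and 3.99%. edgeR gave 2 and 2 members for day 6 against day 0 and 1 and 0 for late wounds against day 6 at that unadjusted limit, and called none. Comparisons with day 0 share its sets.

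Between lineages the members did not differ detectably in wounds. Compared within the same skin over days 6, 9 and 11, 0 of 41 passed, beside 0.0938% of genes, and 0 reached an unadjusted p under 0.05, beside 5.25%, with the same counts of 0 by edgeR. The median of lin+ minus lin- was -0.05 on the log2 scale, beside -0.02 for all genes, with standard errors of 0.32 to 1.24. For Pcna the difference was 0.70 (standard error 0.51). On the natural log scale limma also passed 0 of 41 in wounds, beside 36 of 10663 genes. At an unadjusted p under 0.05 there were 3 members (7.3%), 1 of them higher in lin+ cells, beside 724 genes. On that scale 12 members were above 0, beside 44.7% of genes, with a median of -0.017 beside -0.005. In unwounded skin, on the log2 scale, 0 of 41 passed, beside 0.103%, and 6 had an unadjusted p under 0.05, beside 12.1%. Mcm6 (2.43, standard error 0.64) and Mcm2 (3.57, 0.95, adjusted p = 0.232 for each) were higher in lin+ cells, while Pold2 (-2.31, 0.64, adjusted p = 0.252), Mcm7 (-2.39, 1.03), Rrm1 (-1.88, 0.82) and Rpa2 (-1.49, 0.65) were lower. The median of the 41 was -0.37 beside -0.03 for all genes, and 0.69 without either day 0 set of replicate 1. Whether the late change differed between lineages was tested directly, with the batch as covariate and without pairing lin+ and lin- sets of the same skin. None of 41 passed, beside 0.0188% of genes, and 3 had an unadjusted p under 0.05 (Pold2, Mcm2 and Mcm6), beside 7.22%. edgeR gave 3 for unwounded skin and 2 for the difference of changes at that limit, and called none.

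By deposited identity, the score was highest in IFE-B, the basal cells of the interfollicular epidermis. The first and second batch gave 0.168 and 0.205 in IFE-B, 0.137 and 0.110 in OB (outer bulge), 0.0758 and 0.110 in uHF-I (upper hair follicle) and 0.0823 and 0.195 in SG (sebaceous gland). The share of cells with 10 or more members was 31.7% (24.1 to 40.0) and 35.1% (28.9 to 41.6) in IFE-B, 20.8% (7.1 to 42.2) and 13.4% (7.3 to 21.8) in OB, and 5.6% (0.7 to 18.7) and 13.9% (7.2 to 23.5) in uHF-I. In SG it was 0 of 7 cells in the first batch and 25.0% (7.3 to 52.4) of 16 in the second. No cell of uHF-II, uHF-III, IFE-DI or IFE-DII had as many, with 22 uHF-III cells in the second batch, which allows a share of up to 13.6% by the same 3 counts (exact upper limit 15.4%), and at most 10 cells of each of the others in a batch. The identities are the authors' and were assigned from expression, so these values describe them and test nothing.

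**Figure D5:**
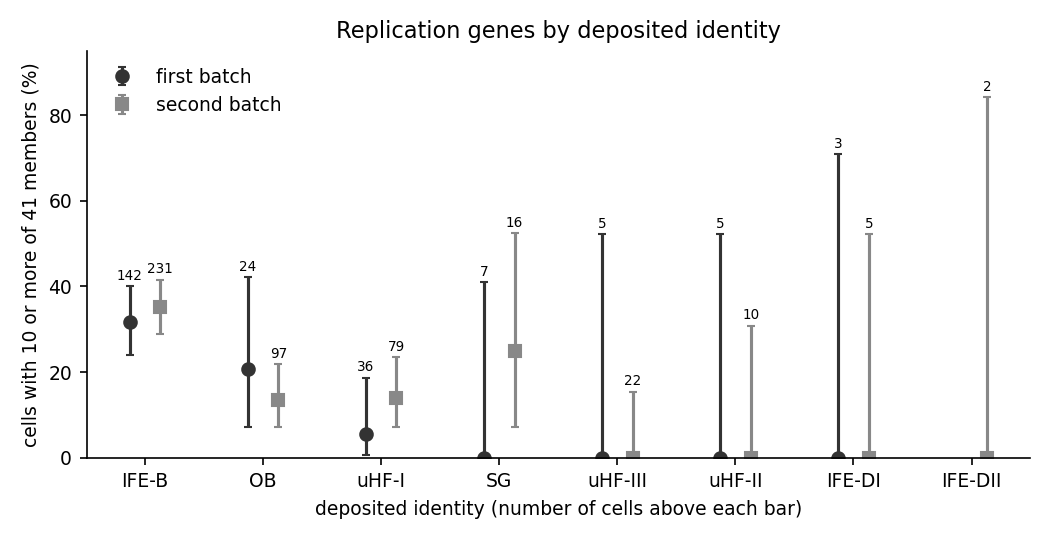
Percent of cells with reads of 10 or more of the 41 members by deposited identity, with exact 95% binomial intervals; circles are the first batch, squares the second, and the number of cells stands above each bar. IFE-B has the highest share among identities with over 30 cells in a batch.

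Within IFE-B, the share of such cells was higher in late wounds than at day 0 when batches and days were pooled. At day 11 of the first batch it was only slightly above day 0, at 22.2% against 21.7% in lin+ and 20.0% against 16.7% in lin- cells. Cells with 10 or more members were 25.0% (13.2 to 40.3) of 44 lin+ IFE-B cells at day 0, 25.0% of 44 at day 6 and 52.3% (41.4 to 63.0) of 88 in late wounds. In lin- IFE-B cells they were 10.4% (4.3 to 20.3) of 67, 24.6% (14.1 to 37.8) of 57 and 50.7% (38.7 to 62.6) of 73. These intervals treat cells of several mice as 1 sample. By set, lin+ IFE-B cells of the first batch had 21.7%, 51.7% and 22.2% at days 0, 9 and 11, and those of the second 28.6%, 25.0%, 70.6% and 62.5% at days 0, 6, 9 and 11. The lin- sets had 16.7%, 57.1% and 20.0%, and 3.2%, 24.6%, 58.8% and 60.0%. In lin- IFE-B cells of the first batch the score was 0.106 at day 0 and again at day 11, so its late difference rests on day 9. With batches pooled, lin- cells of OB went from 16.7% (3.6 to 41.4) at day 0 to 22.0% (11.5 to 36.0) in late wounds. By batch the directions were opposite, from 42.9% of 7 cells to 16.7% of 12 in the first. In the second they went from 0 of 11 cells to 23.7% of 38. Pooled lin+ cells of uHF-I went from 5.9% (0.7 to 19.7) to 13.9% (4.7 to 29.5). The pooled intervals overlap widely in each case. The mean score of IFE-B cells was higher in late wounds by 0.102 and 0.166 in the 2 batches of lin+ cells and by 0.0824 and 0.256 in those of lin- cells.

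The tests within IFE-B called none of 41 members for late wounds against day 0 in lin+ cells, beside 0.135% of 10352 genes, and none in lin- cells, beside 0.0966%. At an unadjusted p under 0.05 there were 4 in lin+ cells (Mcm7, Prim2, Rfc5 and Pold2, background 12.0%) and 6 in lin- cells (Rfc5, Mcm2, Mcm3, Gins2, Pole and Mcm6, background 9.73%), all higher in wounds. The fitted change was 4.05 (standard error 1.22) for Mcm7 in lin+ and 3.33 (0.95) for Mcm2 in lin- IFE-B cells. The medians were 0.89 beside 0.39 for all genes in lin+ and 0.47 beside 0.06 in lin- cells. Between lineages in IFE-B wound cells none of 41 passed, beside 0.0% of genes, and 1 (Gins1, 2.37) had an unadjusted p under 0.05, beside 4.35%. edgeR called none in these comparisons, with 0, 2 and 0 at the unadjusted limit. On the natural log scale limma gave 12 of 41 members (29.3%) an unadjusted p under 0.05 in lin+ IFE-B late wounds, beside 1585 of 10352 genes. In lin- IFE-B cells it gave 16 (39.0%), beside 1650 genes. All these members were higher in wounds. Between lineages in IFE-B wound cells there were 2 (4.9%), beside 475 genes. After adjustment none of 41 passed, beside 7, 10 and 7 genes.

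The deposited clusters separated cells further. Cluster 5, 15 cells of the first batch alone, had a score of 0.474 and 10 or more members in 14 of 15 cells (93.3%). Cluster 0 followed with 0.218 and 0.255 in the first and second batch, and clusters 2 and 3 were lowest, at 0.0341 and 0.0564 and at 0.0459 and 0.0499. Clusters were made from these values, so they are a description.

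Across cells of the same set the members were correlated. Each member's Spearman correlation with the mean of the other 40, averaged over sets, was above 0, from 0.14 for Ccne1 and 0.18 for Pole to 0.51 for Lig1 and Tk1. Dut, which removes dUTP, reached 0.45, and Mcm3 and Mcm5 0.44. Over the 820 pairs the median was 0.23, with 0.22 for the 92 pairs of the same role and 0.23 for the 728 others. The closest pair was Rrm2 with Tk1 (0.52), followed by Lig1 with Tk1 (0.50), and Mcm3 with Mcm5 stood at 0.47. The score itself correlated with the number of genes detected at 0.52, and the median over 7404 other genes was 0.13, so part of each value is shared by any genes of the same libraries. Of 41 members, 10 share at least 5% of their exon bases with another protein-coding gene, mostly on the other strand.

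The 10 other genes whose values followed the score most closely were Tubb5 (mean correlation over sets 0.523), Stmn1 (0.511), Smc4 (0.506), Hells (0.5), Pclaf (0.475), Tyms-ps (0.472), Smc2 (0.465), a gene given by the number 620986 alone (0.462), Dek (0.460) and Top2a (0.444). Tubb5 and Stmn1 encode a tubulin and a tubulin-binding protein, Smc2 and Smc4 are condensin subunits, Pclaf binds Pcna, and Tyms-ps is the pseudogene of the member Tyms. Mki67, the usual marker of cycling cells, stood at 0.369. Ccnd2 (0.355) and Cdk4 (0.393) were well above Ccnd1 (0.167) and Myc (0.163). Gata6, which defines the lineage, was near 0 (0.032), and Cdkn1a, the inhibitor p21, was at -0.168.

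Cells with many members mostly expressed mitosis genes as well. Of the 161 cells with 10 or more members, 102 (63.4%, 55.4 to 70.8) had reads of 5 or more of 30 mitosis genes, beside 29 of 523 other cells (5.5%, 3.7 to 7.9), and 19 of the 161 (11.8%) had at most 1. Mki67 was read in 50.0% and 61.5% of the cells with 10 or more members in the first and second batch, and in 10.6% and 6.5% of the others. The cells with many members also had more genes detected, with medians of 3302.5 and 3841 beside 2050 and 2234, which bears on every count of detected genes.

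The genes around the members were summarised by list. None of 44 other replication genes tested, such as the origin recognition subunits and Hells, passed in late wounds of either lineage (medians 0.41 in lin+ and 0.03 in lin- cells, with 2 and 2 at an unadjusted p under 0.05, where all genes gave 10.1% and 12.9%). Of 25 G1/S regulators none passed (0.66 and 0.09, with 3 and 3), and of 30 mitosis genes none passed (1.12 and 0.44, with 5 and 2). Of 24 replication-dependent histone genes none passed (-0.21 and 1.09, with 0 and 0). Across cells, the scores of these lists correlated with that of the members at 0.62, 0.44, 0.43 and 0.27. Among histone genes, 10 of 24 had an unadjusted p under 0.05 between lineages in wounds, beside 5.25% of all genes, with a median of -0.63 for lin+ minus lin-, and none passed after adjustment.

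Markers of keratinocytes were present in every set. Basal markers summed to 11000 to 47800 CPM and suprabasal markers to 1580 to 17400 CPM in wound sets, and to 13500 to 29900 and 2560 to 4060 at day 0. Basal markers correlated with the member score at 0.25 and suprabasal markers at -0.13. In late wounds against day 0 the median change of 7 basal markers was 0.01 in lin+ and -0.64 in lin- cells, and that of 6 suprabasal markers 0.93 and -0.43. Immune markers summed to at most 177 CPM, fibroblast markers to at most 22.6 and endothelial markers to at most 91.2 in any set, and among fibroblast and endothelial markers none passed the filter over all cells and 1 fibroblast marker did in IFE-B. The immune markers moved with late wounds of the second batch, from 15.0 CPM at day 0 to 115 and 168 at days 9 and 11 in lin+ sets and from 12.6 to 111 and 177 in lin- sets, and their part in the member score was not tested. Their score correlations were 0.04, 0.04 and -0.03.

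Melanocyte markers moved with the lin- wound sets of the second batch. They summed to 481, 3740 and 2660 CPM at days 6, 9 and 11 there, and to at most 41.8 in every other set. Reads of at least 2 of the 3 detected markers were found in 12 of 684 cells, 10 of them among the 184 wound cells of lin- in the second batch. Without the 12 cells the late difference of the score in that group was 0.195, beside 0.181 with them.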

How the data were processed

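Cells were sequenced by Smart-seq2. The authors aligned reads with STAR 2.2 to GRCm38 and counted them per gene with featureCounts on an mm10 RefSeq annotation, and the submitters' processing notes also name Trimmomatic 0.27 and Seurat 3.2.2. The first batch was deposited as raw read counts. The second batch was deposited as RPKM, which the authors scaled by gene length and depth. Reads were recovered from the RPKM steps and, among values below 200 reads, 99.9691% were whole within 0.02 (mean over cells with at least 200 genes). They served for thinning and edgeR. Identities and clusters are those of the deposited annotation, and doublets were not called again. The 4 cells with under 200 genes were kept, and 1048 per-sample columns of the deposited tables were not used.

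Each cell's values were divided by its total and averaged per mouse set, with median-of-ratios scaling within a batch. Genes with at least 10 CPM in at least 2 sets were tested (10663, and 10352 in IFE-B). limma 3.58.1 (R 4.3.3) was fitted to log2(CPM + 1) with a trend and Benjamini-Hochberg adjustment over all tested genes, at a threshold of 0.05. Day comparisons used lineage by day with the batch as covariate, and lineage comparisons the skin as block. The difference of late changes between lineages was fitted like the day comparisons, so it did not pair sets of the same skin. A fold change on this scale understates the change of low genes. A count test could not be the main one because the second batch is RPKM, and edgeR 4.0.16 on summed reads was an alternative, beside other pseudocounts, filters, scalings, scales and sets left out. Deviations of lin+ and lin- sets from the same skin, left after the batch term, correlated at -0.214, -0.012 and -0.103. The batch term draws such correlations below 0 even for unrelated sets, so they cannot be read against 0. The script was tested on simulated data. Intervals are exact binomial and cover counting error only. Day 0 sets share mice with later days in a way the labels do not give, so p-values measure only the spread between these sets. Python 3.11.15, numpy 2.4.6, pandas 2.3.3, scipy 1.17.1 and matplotlib 3.10.9 were used.

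The members, roles and related lists were chosen with earlier results of these data known. Values in every set were given for members past the threshold and for the member of each role with the highest mean CPM, and Mcm7, Mcm2, Mcm6, Pold2 and Rfc5 were added after their values were seen. The other genes most like the members are the 10 with the highest mean correlation with the score, among genes with reads in at least 10% of cells.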

Additional observations from a re-analysis of the deposited data

Results flagged for a closer look

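Gins4, a subunit of the GINS complex, had log2 differences, late wounds minus day 0, of -0.27 and -0.53 in lin+ replicates 1 and 2, against 0.29 and 1.63 in those of lin-. The difference of the changes, lin+ minus lin-, was -1.36 with a standard error of 0.88 (limma, adjusted p = 0.77) and did not pass the test. Rfc1, the large subunit of the clamp loader, had the opposite pattern, at 1.29 and 0.65 in the lin+ replicates, against -1.41 and -0.24 in the lin- replicates. Its difference of 1.79, with a standard error of 1.04 (limma, adjusted p = 0.74), did not pass either. Both were singled out because the batches of one lineage moved one way and those of the other lineage the opposite way. The share of all genes with this pattern was not counted, and the differences come from the same values that picked these members.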

How the results depend on the processing

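No member passed in any of the 12 comparisons under the pseudocount of 10 CPM, no filter, no further scaling, the natural log scale, or edgeR with TMM or RLE. Leaving out 1 set moved the log2 change of Mcm7 in lin+ late wounds from 3.93 to 5.21 without lin+ day 0 replicate 2. That fit leaves 1 lin+ day 0 set, so its calls were not read. With no replicate block or pairing, 0.0 members were called, as with it. The late difference of the score in lin+ replicate 1 (0.0780) was 0.0933 over members read in at least 10% of cells, 0.102 in IFE-B cells and 0.0573 to 0.0988 without 1 late set. In lin+ replicate 2 (0.0928) it was 0.118 with shares of reads, 0.111 over members read in at least 10% of cells and 0.166 in IFE-B cells. In lin- replicate 1 (0.0668) it ran from -0.0289 to 0.163 without 1 late set. The percent of cells with a read of any member moved to 74.5 in lin+ day 0 replicate 1 and to 100.0 in day 11 replicate 2 of each lineage when cells were thinned, and to 100.0 in lin- day 9 replicate 1 and lin- day 11 replicate 2 without the 4 cells of few genes. The cause of these shifts was not tested. The IFE-B cells, the 4 cells and the omission of a late set were chosen as alternatives after seeing the data. So were the scores without members that differ between batches, without members that share exon bases, and without cells with melanocyte markers. With 1 or 2 sets per group and batch, and 40.2% of a typical level in 1 cell, these data limit what can be said of single genes.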
